A study of Mus musculus with 178 samples.

Results

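Lifr, Il6st, Il6ra, Stat3 and Socs3, which are 5 of the 55450 genes in a table of whole-blood RNA counts, were followed over 4 days of sampling in tumor-bearing mice treated against PD-1. They were chosen by the measured level of Lifr, which was higher on Days 17 and 24 than on Day 4 in responders and in non-responders, and the other 4 were taken with it as genes of the same receptor family and its signalling. The rise of Lifr, and the changes of all 5 members from Day 4 to Days 17 and 24, are therefore given as a description without a test. All 5 members passed the filter on low counts in every fit.

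The data were 178 bulk RNA-seq libraries from 45 C57BL/6J mice bearing 4MOSC tumors, a transplantable oral squamous cell carcinoma model made with a carcinogen, with 4MOSC1 cells placed in the mouth. Every mouse received the anti-PD-1 antibody RMP1-14, starting after the Day 4 blood draw, so that Day 4 is the pre-treatment sample and Days 9, 17 and 24 are on-treatment samples. No untreated mice were analysed, and a change with treatment cannot be told apart from a change with time or tumor growth. Response was read from tumor size: 15 mice were responders, with 15, 15, 14 and 15 libraries on Days 4, 9, 17 and 24, and 30 were non-responders, with 29, 30, 30 and 30. The tumor cells are a single transplanted line, and response was compared between mice that carried the same line.

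Cytokines of the interleukin 6 family act through gp130, the shared signal-transducing receptor chain encoded by Il6st. Il6ra encodes the chain that binds interleukin 6, and Lifr the chain that pairs with gp130 for leukemia inhibitory factor and related cytokines. Bound receptors activate JAK kinases, which phosphorylate STAT3, and STAT3 induces Socs3, whose product binds gp130 and the kinases and damps the signal. In blood, interleukin 6 receptor is carried by neutrophils, monocytes and some T cells, and gp130 is carried widely.

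Lifr lies on the plus strand of chromosome 15 (chr15:7090614-7197489, GRCm38, GENCODE M21). Il6st lies on the plus strand of chromosome 13 (chr13:112464070-112510086) and Il6ra on the minus strand of chromosome 3 (chr3:89864059-89913196). Stat3 (chr11:100885098-100939540) and Socs3 (chr11:117966079-117970047) lie on the minus strand of chromosome 11. Il6ra overlaps the opposite-strand gene Gm42809 by 281 bases and Stat3 overlaps Stat5a by 72 bases, and reads within those stretches cannot be assigned to 1 gene unless strand was used, which is not given in the sources used here. Mouse Lifr is known to give a membrane-bound and a soluble receptor from alternative transcripts, which a count per gene does not separate.

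RefSeq (GRCm38.p6) gives Lifr a pair of starts, and the 200 bases from 250 to 51 before each are shown for the gene whose rise set the choice, together with the same window of Socs3, the member whose change differed between response groups. They are chr15:7129322-7129521 and chr15:7140292-7140491 on the plus strand for Lifr and chr11:117969417-117969616 on the minus strand for Socs3. Capitals mark a match to TTCNNNGAA, the spaced palindrome that STAT factors are known to bind, which reads the same on both strands.
Lifr, upstream start: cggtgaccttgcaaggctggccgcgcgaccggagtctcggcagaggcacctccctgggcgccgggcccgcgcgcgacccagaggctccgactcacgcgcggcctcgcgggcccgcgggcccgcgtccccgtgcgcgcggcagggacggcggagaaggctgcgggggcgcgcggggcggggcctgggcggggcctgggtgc
Lifr, downstream start: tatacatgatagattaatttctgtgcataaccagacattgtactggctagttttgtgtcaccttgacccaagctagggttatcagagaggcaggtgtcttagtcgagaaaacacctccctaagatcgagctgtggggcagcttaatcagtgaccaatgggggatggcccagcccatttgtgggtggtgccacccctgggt
Socs3: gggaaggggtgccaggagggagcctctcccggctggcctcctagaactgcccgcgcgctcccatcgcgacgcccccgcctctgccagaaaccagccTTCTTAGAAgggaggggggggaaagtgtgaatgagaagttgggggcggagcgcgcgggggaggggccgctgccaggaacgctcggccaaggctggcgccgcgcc
The window of the upstream Lifr start is 82.5% G and C and that of the downstream start 49.5%. In 300-base promoters the motif occurred in 1 of the 6 of the members, that of Socs3, as TTCTTAGAA beginning 154 bases before the start, and in 8.29% of all 32817 promoters. A match is a description of letters and says nothing of binding in these libraries.

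Total counts ran from 26058958 to 82208665 per library, with a median of 51971365. Haemoglobin genes took 68.7% to 88% of them, the transcripts that dominate blood RNA, and all other genes shared 4535330 to 22174668 counts. In 13 libraries the TMM factor, the scale set from the bulk of genes, was under 0.5 (low-factor libraries below), and 5 of these were responder libraries of Day 4 against 1 non-responder library of that day. The lowest factor, 0.0848 against 0.266 for the next, belonged to non-responder 29 on Day 24. The Day 17 library of non-responder 24 is labelled a responder, unlike the other 3 libraries of that mouse, and it was counted with the non-responders. Ear tags fall into 4-digit and 3-digit series, and 11 of the 15 responders but 7 of the 30 non-responders had 4-digit tags, so that series and response are partly confounded.

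Between genes, levels are compared in TPM, which is scaled to gene length and to a sum that includes haemoglobin. Over the 178 libraries mean TPM was 3.31 ± 1.57 (SD) for Stat3, 2.52 ± 1.52 for Socs3, 1.62 ± 0.80 for Il6ra, 1.14 ± 0.542 for Il6st and 0.221 ± 0.151 for Lifr. Lifr was thus the lowest of the 5 per length, and neighbours in this order lay within their SDs of each other except for Il6st and Lifr. Lifr had between 7 and 565 counts per library, whereas the lowest count of any other member was 79. All levels below are log2 CPM, counts relative to the TMM-scaled size of the library.

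Lifr was low before treatment and higher on every treated day in both response groups. In responders on Day 4 its log2 CPM ranged from -1.57 to 1.80, with a median of 0.44 and a mean of 0.39 ± 0.83 (SD, n = 15). Responder medians were 1.74 on Day 9, 1.61 on Day 17 and 1.74 on Day 24, and the highest libraries reached 2.11, 2.91 and 3.02. In non-responders the median was 1.04 on Day 4, with a range from -0.45 to 1.55, and 1.98, 2.05 and 1.79 on the later days. Responder Day 4 values were the most scattered of the 8 groups. Ordered by mean, the groups ran from responders on Day 4 (0.39) and non-responders on Day 4 (0.90) to responders on Days 9, 17 and 24 (1.74, 1.79 and 1.87) and non-responders on Days 24, 9 and 17 (1.87, 1.92 and 2.07). The step from non-responders on Day 4 to responders on Day 9 was the only one between neighbours larger than their SDs.

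**Figure D1:**
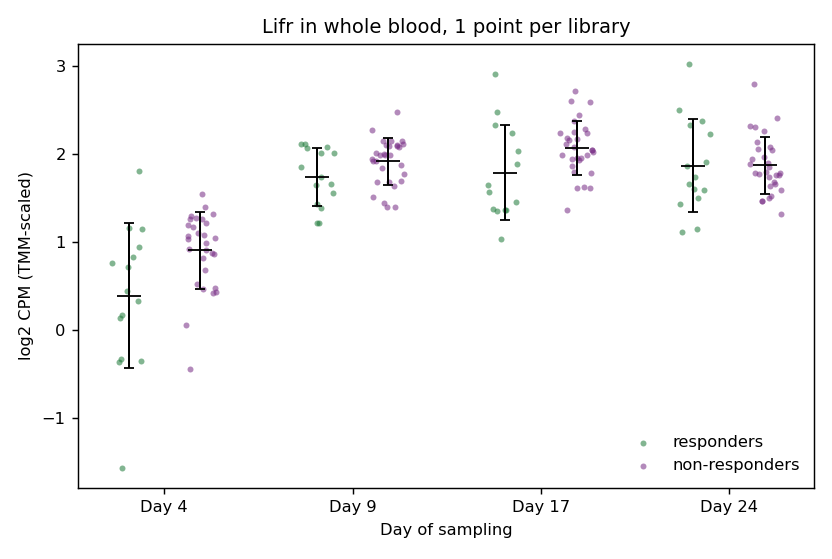
Lifr in each library, as TMM-scaled log2 CPM on the vertical axis against day of sampling; points are libraries, colored by response, and bars give the mean and SD. The 2 Day 4 groups, with means of 0.39 and 0.90, sit below the 6 on-treatment groups, whose means lie between 1.74 and 2.07.

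Within mice, Lifr exceeded the animal's own Day 4 level in 15 of 15 responders on Day 9, 13 of 14 on Day 17 and 15 of 15 on Day 24, and in 29 of 29 non-responders on each day. Single libraries still overlapped between days in both groups. Of the non-responder libraries, 26 of 30 on Day 9, 29 of 30 on Day 17 and 25 of 30 on Day 24 lay above the highest Day 4 library of that group. In responders 7 of 15, 6 of 14 and 7 of 15 did. The fitted log2 change from Day 4 in responders was 1.15 ± 0.20 (SE) on Day 9, 1.26 ± 0.20 on Day 17 and 1.33 ± 0.20 on Day 24, or 2.21-, 2.39- and 2.51-fold. In non-responders it was 0.96 ± 0.085, 1.11 ± 0.086 and 0.92 ± 0.086, or 1.95-, 2.16- and 1.89-fold. As background, 25.6% and 17.4% of all genes tested changed in responders by Days 17 and 24, and 46.1% and 48.7% in non-responders. Here and below a change between days was called where the Benjamini-Hochberg adjusted p of edgeR's quasi-likelihood test did not exceed 0.05.

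Most of the Lifr change was in place by Day 9. From Day 9 to Day 17 the fitted change was 0.11 ± 0.20 (SE) in responders and 0.15 ± 0.082 in non-responders. From Day 17 to Day 24 it was 0.07 ± 0.19 in responders and -0.20 ± 0.083 in non-responders. Both days of this last step entered the choice of Lifr, so that it too is a description.

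The 5 lowest responder Day 4 values of Lifr came from the 5 libraries of that group with a TMM factor under 0.5, which held 7 to 20 Lifr counts each. Without low-factor libraries the responder Day 4 mean was 0.83 ± 0.47 (SD, n = 10) and that of non-responders 0.92 ± 0.44 (n = 28). The changes to Days 9, 17 and 24 were then 0.93 ± 0.21, 1.01 ± 0.20 and 1.11 ± 0.20 (SE) in responders and 0.95 ± 0.086, 1.1 ± 0.087 and 0.90 ± 0.087 in non-responders. Lifr was thus still higher on all 3 later days in both groups. Within the ear-tag series the Day 24 change was 1.37 ± 0.24 in 4-digit and 1.19 ± 0.29 in 3-digit responders, and 1.00 ± 0.13 and 0.88 ± 0.11 in non-responders.

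Il6ra, the interleukin 6 binding chain, peaked on Day 9. Its responder libraries ran from 4.01 to 4.98 on Day 4 with a median of 4.49, and from 4.39 to 5.00 on Day 9 with a median of 4.77. Non-responder libraries ran from 4.02 to 4.68 on Day 4 (median 4.48) and from 4.42 to 5.19 on Day 9 (median 4.76). Later medians were lower, at 4.58 and 4.41 on Days 17 and 24 in responders and 4.62 and 4.50 in non-responders. Between Days 4 and 9 Il6ra rose by 0.27 ± 0.072 (SE) on the log2 scale in responders (adjusted p = 0.00349, but 0.20 with an adjusted p of 0.0755 without the low-factor libraries) and by 0.30 ± 0.040 in non-responders (adjusted p = 3.34e-10), and it was above its own Day 4 level in 14 of 15 and 29 of 29 mice. From Day 9 to Day 17 it fell by 0.15 ± 0.040 in non-responders (adjusted p = 0.00196), whereas the responder value was -0.14 ± 0.073 (adjusted p = 0.277).

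Il6st, the shared gp130 chain, ran the other way, with its lowest levels on Day 17. Responder libraries had medians of 4.48, 4.32, 4.14 and 4.38 on Days 4, 9, 17 and 24, and the full range over those groups was 3.80 to 4.76. Non-responder medians were 4.46, 4.36, 4.17 and 4.39, within a range of 3.68 to 4.91. The groups of different days overlapped throughout. Il6st fell by 0.11 ± 0.044 (SE) from Day 4 to Day 9 in non-responders (adjusted p = 0.0304, and 0.0555 with DESeq2's size factors), by a further 0.17 ± 0.044 to Day 17 (adjusted p = 0.00238), and rose by 0.18 ± 0.044 to Day 24 (adjusted p = 0.00187). In responders the first 2 steps were -0.12 ± 0.062 (adjusted p = 0.133) and -0.16 ± 0.063 (adjusted p = 0.115), and the rise to Day 24 was 0.24 ± 0.063 (adjusted p = 0.00435). Only 2 of 14 responders and 4 of 29 non-responders had more Il6st on Day 17 than on Day 4.

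Stat3, the transcription factor of the pathway, stayed within a narrow range, from 4.47 to 5.37 over all libraries. Responder medians were 4.79, 4.98, 4.98 and 4.81 on Days 4, 9, 17 and 24, and non-responder medians 4.82, 5.05, 4.94 and 4.85. It rose from Day 4 to Day 9 by 0.20 ± 0.061 (SE) in responders (adjusted p = 0.0101, but 0.09 with an adjusted p of 0.378 without the low-factor libraries) and by 0.25 ± 0.033 in non-responders (adjusted p = 7.45e-11). The level then fell by 0.13 ± 0.032 from Day 9 to Day 17 in non-responders (adjusted p = 0.0015), and in responders by 0.20 ± 0.062 from Day 17 to Day 24 (adjusted p = 0.0169, and 0.0843 without a filter on low counts). The responder step from Day 9 to Day 17 was 0.0019 ± 0.062 (adjusted p = 0.992) and the non-responder step from Day 17 to Day 24 was -0.07 ± 0.033 (adjusted p = 0.102).

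Socs3, the feedback inhibitor, changed most among the members besides Lifr. Its responder libraries had medians of 2.95 on Day 4, 3.76 on Day 9, 3.86 on Day 17 and 3.22 on Day 24, with ranges of 2.67 to 4.3, 3.36 to 4.61, 3.21 to 4.76 and 2.64 to 4.15. Non-responder medians were 2.96, 3.93, 3.59 and 3.64, with ranges of 2.21 to 3.44, 2.90 to 4.66, 3.12 to 5.09 and 3.00 to 4.49. The responder median was thus back near that of Day 4 by Day 24, though by series the mean change per mouse was -0.055 ± 0.358 (SD, n = 11) in 4-digit and 0.515 ± 0.657 (n = 4) in 3-digit responders, and 21 of 30 non-responder libraries of Day 24 exceeded every non-responder library of Day 4. From Day 4 to Day 9 Socs3 rose 1.54-fold in responders (log2 0.62 ± 0.17, SE; adjusted p = 0.0038) and 1.99-fold in non-responders (0.99 ± 0.10; adjusted p = 3.47e-15). The responder value was 0.46 without the low-factor libraries (adjusted p = 0.0962). From Day 9 to Day 17 it fell by 0.29 ± 0.10 in non-responders (adjusted p = 0.0199) and its change was 0.02 ± 0.17 in responders (adjusted p = 0.961). From Day 17 to Day 24 it fell by 0.58 ± 0.17 in responders (adjusted p = 0.0118) and its change was 0.05 ± 0.10 in non-responders (adjusted p = 0.764). Within ear-tag series, the responder change from Day 17 to Day 24 was -0.83 in 4-digit mice (adjusted p = 0.00153) and 0.029 in 3-digit mice, of which 4 were responders (adjusted p = 0.982), and the non-responder change from Day 9 to Day 17 was -0.44 in 3-digit mice (adjusted p = 0.000272) and 0.20 in 4-digit mice (adjusted p = 0.758).

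**Figure D2:**
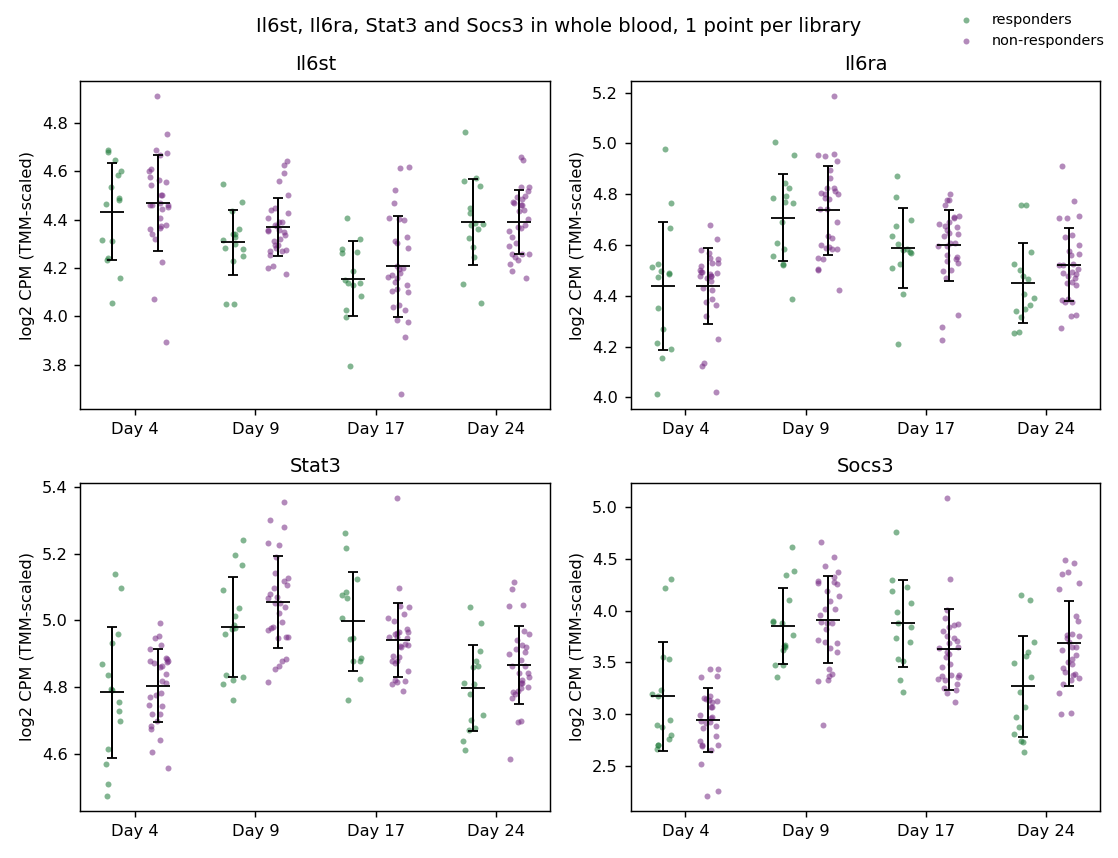
Il6st, Il6ra, Stat3 and Socs3 in each library, as TMM-scaled log2 CPM against day of sampling, 1 panel per gene; points are libraries, colored by response, and bars give the mean and SD. Il6st is lowest on Day 17, with group means of 4.16 and 4.21, and mean Socs3 on Day 24 is 3.27 in responders and 3.69 in non-responders.

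Counted together without Lifr, 3 of 4 members rose from Day 4 to Day 9 in responders, where 27.7% of all genes tested changed, and in non-responders 3 of 4 rose and 1 fell, where 50.8% changed. From Day 9 to Day 17, 0 of 4 changed in responders in edgeR's quasi-likelihood test (1 at an unadjusted p under 0.05; 5.53% of all genes), and 4 of 4 fell in non-responders (26.5% of all genes). From Day 17 to Day 24, 1 of 4 rose and 2 of 4 fell in responders (18.9% of all genes), and 1 of 4 rose in non-responders (21.2%). Successive steps share the libraries of the day between them. Within a single ear-tag series, from Day 4 to Day 9, 1 of 4 passed in 4-digit and in 3-digit responders, where 17.3% and 6.91% of all genes did, and 1 of 4 in 4-digit and 3 of 4 in 3-digit non-responders, where 14.3% and 53.8% did. In 4-digit mice alone 0 of 4 were called in non-responders in either later step (6.39% and 8.47% of all genes), and in 3-digit mice alone 0 of 4 in responders from Day 17 to Day 24 (0.0394%). On TPM with limma 0 of 4 were called in responders from Day 4 to Day 9 and from Day 17 to Day 24 (1.7% and 0.406% of all genes), and 1 and 0 in non-responders (20.3% and 4.22%). For the steps named here, the shares of all genes called were thus also lower than over the whole set, except for 3-digit non-responders from Day 4 to Day 9. Other steps of these fits had higher shares, at 41.8% in non-responders from Day 9 to Day 17 on TPM. In 4-digit responders from Day 17 to Day 24 the share was 21.6%. Without the 13 low-factor libraries the responder rises from Day 4 to Day 9 no longer passed for Il6ra, Stat3 or Socs3, while Il6st then fell by 0.19 from Day 9 to Day 17 in responders (adjusted p = 0.0466). Of all genes, 19.9% and 7.11% changed in these responder steps. The 4 non-responder calls of Day 9 against Day 4 stood without those libraries, with adjusted p from 5.1e-15 to 0.00892, when 53.9% of all genes changed.

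From Day 4 to Day 17 the description gives Il6st -0.29 ± 0.063 (SE), Il6ra 0.13 ± 0.073, Stat3 0.20 ± 0.062 and Socs3 0.64 ± 0.17 in responders. The non-responder values were -0.28 ± 0.045, 0.14 ± 0.040, 0.12 ± 0.033 and 0.70 ± 0.10. By Day 24 Il6st, Il6ra and Stat3 were within 0.10 of their Day 4 level in both groups, and Socs3 stood at 0.07 ± 0.17 in responders and 0.75 ± 0.10 in non-responders. Lifr alone among the 5 members was over 1.5-fold above its Day 4 level on Day 24 in both groups, and it was chosen for its rise to that day.

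Whether responders differ from non-responders on a given day is the comparison that a blood biomarker would rest on. Lifr, whose levels by day and response group set the choice, is given here as a description, and the other 4 members were tested. In edgeR's quasi-likelihood test none of the 4 passed an adjusted p of 0.05 with a fold change of 1.5 on Days 4, 9, 17 or 24, when 4.21%, 3.65%, 0.264% and 0.297% of all genes tested did. The unadjusted p was under 0.05 for 1, 0, 0 and 1 of them on those days, and DESeq2 also called 0 on each day. On TPM with limma, Stat3 was called on Day 9, lower in responders (-0.64, adjusted p = 0.000217), and 0 of the 4 on the other days. Of all genes, 8.03%, 6.26%, 0.00799% and 0% were called in that fit on Days 4, 9, 17 and 24. On Day 4 the difference of Lifr, responders minus non-responders, was -0.34 ± 0.17 (SE) on the log2 scale, which became -0.09 without the low-factor libraries. Socs3 was 0.32 higher in responders on Day 4 (95% interval 0.0751 to 0.567, adjusted p = 0.116) and its difference on Day 24 was -0.39 (-0.659 to -0.112, adjusted p = 0.0702). DESeq2 gave that Day 24 difference an adjusted p of 0.0347, short of the 1.5-fold limit. It was -0.16 (adjusted p = 0.565) with the ear-tag series as a covariate, -0.34 in 4-digit mice (adjusted p = 0.418), 0.020 in 3-digit mice (adjusted p = 0.992) and -0.31 with the low-factor libraries left out (adjusted p = 0.141). For Il6st, Il6ra and Stat3 the intervals of all 4 days lay between -0.179 and 0.146 in the edgeR fit, which leaves out a 1.5-fold difference in either direction on that scale. On the TPM scale Stat3 differed by -0.64 on Day 9, which is beyond it, and by -0.53 on Day 4, when the medians over all genes were -0.256 and -0.273.

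The change over time was then compared between response groups as an interaction of response and day. Lifr is again a description. For the change from Day 4 to Day 9, 0 of 4 members and 0% of all genes passed the test (1 member at an unadjusted p under 0.05), and for the change to Day 17, 0 of 4 members (0 at an unadjusted p under 0.05) and 0.351% of all genes passed. For the change to Day 24, Socs3 passed, as did 3.76% of all genes (515 of 13688, which became 154 without the Day 24 library of non-responder 29 and 212 with the mouse as a block, with Socs3 called in both). Its change in responders minus that in non-responders was -0.70 ± 0.19 (SE) on the log2 scale (95% interval -1.06 to -0.327, adjusted p = 0.0251). The Lifr change was 0.39 ± 0.19 larger in responders, and 0.21 larger without the low-factor libraries. Il6st, Il6ra and Stat3 differed in their change to Day 24 by 0.04, -0.09 and -0.06, with adjusted p of 0.868, 0.613 and 0.695.

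**Figure D3:**
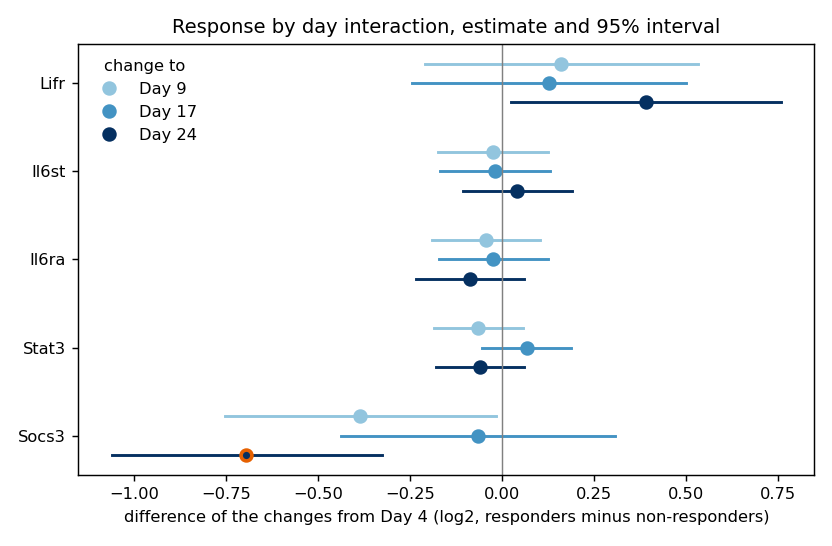
Difference of the change from Day 4 between responders and non-responders for each member, on the log2 scale, for Days 9, 17 and 24; points are estimates, lines 95% intervals, and an orange outline marks a called difference. Among the members tested only Socs3 on Day 24 is outlined, at -0.70 with an interval from -1.06 to -0.327. Lifr is a description without a test, so it could not be outlined and its intervals are not read as tests.

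Mouse by mouse, Socs3 was above its own Day 4 level on Day 24 in 9 of 15 responders and 28 of 29 non-responders. The change per mouse ran from -0.70 to 1.21 in responders, with a median of 0.03 and a mean of 0.097 ± 0.502 (SD, n = 15), and from -0.07 to 2.25 in non-responders, with a median of 0.67 and a mean of 0.745 ± 0.546 (n = 29). The groups overlapped, and their means differed by -0.65. Leaving out each mouse in turn gave differences from -0.728 to -0.592. In 4-digit mice, 11 responders against 7 non-responders, the difference was -0.55, and in 3-digit mice, 4 against 22, it was -0.31. Socs3 was taken up mouse by mouse because the interaction had called it in the same libraries, and these values are a description without a test. With the series as a covariate the fitted difference was -0.70 (adjusted p = 0.0236), but it passed the test over all genes in neither series alone, at -0.65 (adjusted p = 0.264) in 4-digit and -0.28 (adjusted p = 0.865) in 3-digit mice, where 4.96% and 0% of all genes passed. Without the low-factor libraries it was -0.78 (adjusted p = 0.0228), and on TPM, whose scale includes haemoglobin, -0.07 (adjusted p = 0.788), when the median over all genes was 0.186 and 9.69% of all genes passed.

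**Figure D4:**
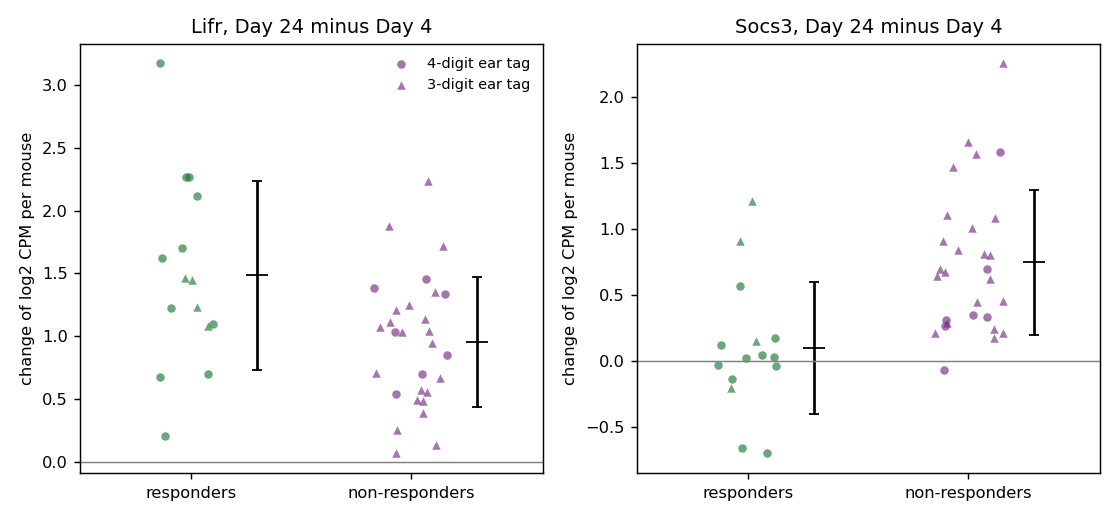
Change of log2 CPM from Day 4 to Day 24 in each mouse for Lifr and Socs3; points are mice, split by response and marked by ear-tag series, and bars give the mean and SD. Lifr is above 0 in all 15 responders and all 29 non-responders, and Socs3 in 9 and 28 of them.

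Whole blood holds many cell types, and for every member fewer cells of a type and less RNA per cell cannot be told apart. Markers of blood cells were therefore set beside the members. All 10 neutrophil markers, led by S100a9, Csf3r and S100a8, were detected in every group. Their summed CPM ran from 154 to 458 (median 243) in responders on Day 4 and from 139 to 384.5 (median 215) on Day 24, and from 110.5 to 299 (median 196) and 117.5 to 469 (median 241) in non-responders. On Day 9 the medians were 393 and 366, and on Day 17 341 and 277. Neutrophil markers and Socs3 were thus both high on Day 9 in both groups. Between Days 4 and 24 the median of the sum was lower in responders and higher in non-responders, whereas the list's mean log2 CPM, in which each marker counts alike, was higher in both, at 2.45 ± 0.38 (SD over libraries) and 2.53 ± 0.393 in responders and 2.09 ± 0.454 and 2.44 ± 0.443 in non-responders. The part of neutrophil number in the Socs3 result was not tested.

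Over the 178 libraries, which include up to 4 per mouse and share the day structure, the mean of the neutrophil list correlated with Socs3 at r = 0.746, with Stat3 at 0.616 and with Il6ra at 0.537, and within the 8 groups at 0.648, 0.419 and 0.312. For Lifr the same correlation was 0.284, and -0.0121 within groups. Il6ra correlated with the 6 classical monocyte markers at 0.623 and within groups at 0.421. All 6 were detected in every group, and their median summed CPM was 146, 213, 133 and 99.2 on Days 4, 9, 17 and 24 in responders and 101, 211, 134 and 93.7 in non-responders, highest on Day 9, as were Il6ra in both groups and Stat3 and Socs3 in non-responders. Il6st correlated with the 7 T cell markers at 0.484, and at 0.50 within groups, whereas Lifr correlated with them at -0.606 and -0.388. Median summed T cell CPM was 133 on Day 4 and 101 on Day 9 in responders, and 139 and 103 in non-responders. On Days 17 and 24 it was 117 and 119 in responders and 114 and 124 in non-responders, above Day 9 and below Day 4, whereas Lifr kept near its Day 9 level. Median Il6st was lower on Day 17 than on Day 9, at 4.14 and 4.32 in responders and 4.17 and 4.36 in non-responders. Correlations of the members with haemoglobin share lay between -0.299 for Il6ra and -0.0497 for Socs3. Their part in the day changes was not tested.

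Among 13687 genes, those most like Lifr over the 178 libraries were Map3k8 (r = 0.729, and 0.556 within groups), Resf1 (0.722) and Fbxo33 (0.719). Il6st was most like Bcl11b (0.70), a T cell transcription factor, followed by Nipal1 and Arl4c. For Il6ra the closest were Cers6 (0.826), Bach1 and Il17ra. Sbno2 came first for both Stat3 (0.818) and Socs3 (0.888), followed by Tlr6 and Fndc3b for Stat3 and by Steap4 and Il1b, the interleukin 1 beta gene, for Socs3. Within the family the closest pair was Stat3 and Socs3, at 0.768 and 0.701 within groups, then Il6ra and Stat3 at 0.706. Lifr correlated with Socs3 at 0.492, which was 0.21 within groups, and with Il6st at -0.297.

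The rest of the pathway was read from a list of 46 genes. Of the ligands, Il6 had a median of 2 counts per library and none in 45 of 178, Lif a median of 2 and none in 50, and Il31 none in any library. In all 8 of the 46 genes were too low to test in any fit, among them Il6, Lif, Il11, Ctf1 and Il31, the receptor Cntfr and the target Timp1. Il11 was at 0 in 161 libraries. Ligand genes that could be tested included Osm, at a mean of 1.28 CPM, and Clcf1, at 11.5 CPM. Among signalling genes Jak1 averaged 105 CPM.

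From Day 4 to Day 9 in responders, 7 of 36 pathway genes tested rose and 3 fell, 27.8% against 27.7% of all genes, with a median log2 change of 0.135 against 0.00779. The STAT3 targets Bcl3 (0.42), Cebpd (0.71) and Junb (0.42) and the kinase Tyk2 (0.21) led the rise, with adjusted p from 0.000436 to 0.00587, and the phosphatase Ptpn6 (-0.16), the receptor Il27ra (-0.23) and the kinase Jak1 (-0.16) fell, with adjusted p from 0.0089 to 0.0127. In non-responders 19 of 37 rose and 6 fell, 67.6% against 50.8% of all genes, with a median of 0.212 against -0.0135. There Junb (0.71), Cebpd (1.02), Fos (1.40) and Mcl1 (0.25) led the rise, with adjusted p from 5.19e-13 to 5.1e-10, and Il27ra (-0.29), Jak1 (-0.19), Pias1 (-0.09) and Ptpn6 (-0.11) the fall, with adjusted p from 2.03e-10 to 0.00366. Junb and Fos encode AP-1 transcription factors, Cebpd a C/EBP factor and Mcl1 a survival protein. Of the 12 STAT3 targets tested, 5 rose in responders, and 9 rose and 1 fell in non-responders, when 13.5% and 23.3% of all genes rose. When the low-factor libraries were left out, 5 of 36 pathway genes rose and 1 fell in responders (16.7% against 19.9% of all genes). Bcl3, Cebpd, Tyk2 and Il27ra were then still called, with adjusted p from 0.00853 to 0.033, and Junb (0.35, adjusted p = 0.075), Ptpn6 (-0.13, adjusted p = 0.0942) and Jak1 (-0.077, adjusted p = 0.313) were not. In non-responders 23 of 37 then rose and 6 fell (78.4% against 53.9%).

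From Day 9 to Day 17 in non-responders 12 of 37 pathway genes fell and 3 rose, 40.5% against 26.5% of all genes, with a median of -0.0571 against 0.0131. Hif1a (-0.24), Bcl3 (-0.41), Osm (-0.79), which encodes oncostatin M, and Adam17 (-0.17), a sheddase of the interleukin 6 receptor, led the fall, with adjusted p from 6.21e-10 to 1.49e-06. Il27ra (0.21), Ptpn11 (0.29) and Clcf1 (0.22) rose, with adjusted p from 7.39e-06 to 0.0126. In responders 3 of 36 rose and 2 fell over that step, 13.9% against 5.53%. The risers were Il27ra (0.29, adjusted p = 0.0082), the inhibitor Socs1 (0.61, adjusted p = 0.0194) and Cebpb (0.95, adjusted p = 0.0248), and Tyk2 (-0.21, adjusted p = 0.0164) and Bcl3 (-0.30, adjusted p = 0.0423) fell. With the low-factor libraries left out 2 rose and 1 fell (8.33% against 7.11%), and Socs1 (0.51, adjusted p = 0.0581) and Bcl3 (-0.25, adjusted p = 0.0726) were not called.

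From Day 17 to Day 24 in responders 6 of 36 fell and 2 rose, 22.2% against 18.9%, with a median of -0.0677 against -0.0157. Cebpb (-2.35), Cebpd (-1.03) and Socs1 (-0.83) fell beside Socs3, with Mcl1 (-0.20), with adjusted p from 5.08e-08 to 0.0033, while Il4ra (0.23, adjusted p = 0.000366) and Pias1 (0.14, adjusted p = 0.0382) rose. In non-responders 9 of 37 fell and 1 rose, 27.0% against 21.2%. Cebpb (-1.0), Gab1 (-0.49) and Il31ra (-0.47) were among those that fell, with adjusted p from 0.000146 to 0.00808, and Stat5a (0.12, adjusted p = 0.00592) rose. Between Days 4 and 24, 2 pathway genes were higher and 2 lower in responders, and 10 were higher and 8 lower in non-responders, 11.1% against 17.4% and 48.6% against 48.7% of all genes. Without the low-factor libraries 2 rose and 7 fell in responders from Day 17 to Day 24 (25% against 25.3%) and 3 rose and 9 fell in non-responders (32.4% against 24.3%), and between Days 4 and 24 the responder calls were 0 higher and 1 lower (2.78% against 1.88%).

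**Figure D5:**
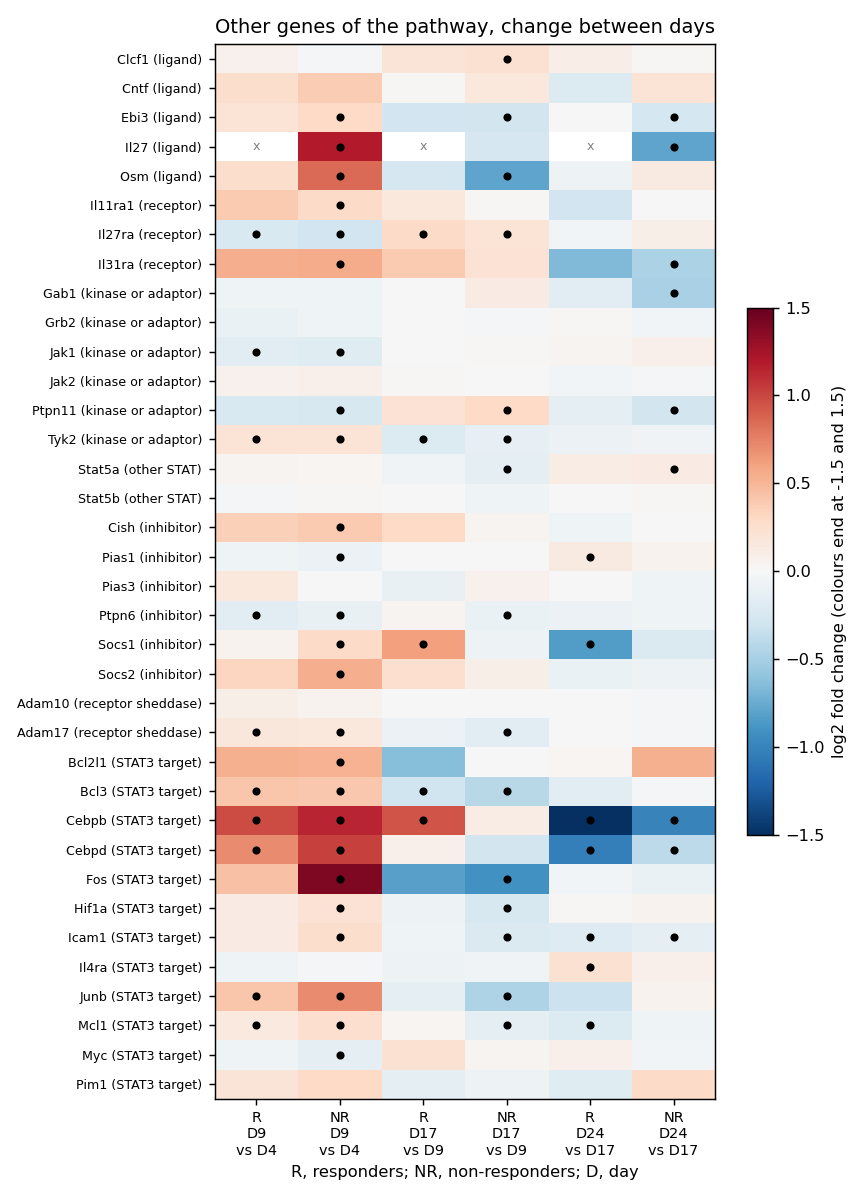
Log2 fold change of the other pathway genes between successive days in responders (R) and non-responders (NR), 1 row per gene shown, with its role; color runs from -1.5 to 1.5, a dot marks a called change and x a gene that was not tested. In non-responders 19 of 37 genes tested rose from Day 4 to Day 9, and 12 of 37 fell from Day 9 to Day 17.

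Between response groups, 2 of 36 pathway genes were higher in responders on Day 4, 5.56% against 4.21% of all genes. They were Pim1 (0.65 ± 0.13, SE, adjusted p = 0.003), a kinase, and Bcl2l1 (0.94 ± 0.22, adjusted p = 0.00454), which encodes the survival protein BCL-XL, also abundant in maturing red cells. Without the low-factor libraries their differences were 0.29 (adjusted p = 0.334) and 0.26 (adjusted p = 0.731). With the ear-tag series as a covariate Pim1 was at 0.63 (adjusted p = 0.00972) and Bcl2l1 at 0.96 (adjusted p = 0.0117). Neither passed in 4-digit mice alone, at 0.55 (adjusted p = 0.165) and 0.75 (adjusted p = 0.192), or in 3-digit mice alone, at 0.70 and 1.17 (adjusted p = 0.091 for both), and 0% of all genes passed in either series. On TPM with limma they turned, to -0.21 and -0.047, when the median over all genes was -0.273. On Day 9, 1 of 37 passed, 2.7% against 3.65% of all genes. It was Bcl2l1, 0.92 ± 0.16 higher in responders (adjusted p = 3.28e-05), and it passed within the 3-digit series (1.00, adjusted p = 0.0164) but not the 4-digit series (0.48, adjusted p = 0.378), where 2.55% and 0% of all genes passed. Without the low-factor libraries it was 0.81 (adjusted p = 0.00151), and on TPM with limma it was 0.21 (adjusted p = 0.0328), short of the 1.5-fold limit. All 5 red cell markers, led by Alas2 and Slc4a1, were detected, and their summed CPM ran from 5715 to 50940 (median 16590) in responders on Day 4 and from 3920 to 22810 (median 8656) in non-responders. On Day 9 the medians were 18940 and 10330, with ranges of 9423 to 30960 and 4680 to 21440. The part of red cell RNA in these differences was not tested. On Days 17 and 24, 0 of 36 pathway genes passed in edgeR's quasi-likelihood test, with 11 and 9 at an unadjusted p under 0.05, when 0.264% and 0.297% of all genes passed. Leaving out the low-factor libraries, Socs1 (0.62, adjusted p = 0.0467) and Cebpb (1.06, adjusted p = 0.0457) were higher in responders on Day 17, 5.56% against 0.895% of all genes, and 0 of 36 passed on Day 24, with 10 at an unadjusted p under 0.05.

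Among the pathway genes the change from Day 4 differed between response groups for 0 of 38 on Day 9 and on Day 17, with 4 on each day at an unadjusted p under 0.05 in the same test, and for 1 of 38 on Day 24 (2.63%). Of all genes 0%, 0.351% and 3.76% passed on the 3 days. That gene was Myc, a growth-promoting transcription factor, whose change was 0.36 ± 0.091 (SE) larger in responders (adjusted p = 0.0188). Without the low-factor libraries the Myc difference was 0.22 (adjusted p = 0.139). It passed in neither series alone, at 0.34 in both, with adjusted p of 0.231 in 4-digit and 0.741 in 3-digit mice (4.96% and 0% of all genes). Bcl2l1 and Pim1 lay the other way, with the change lower in responders, at -1.09 (adjusted p = 0.0508) and -0.64 (adjusted p = 0.0643). DESeq2 called both, at -1.18 (adjusted p = 0.0204) and -0.69 (adjusted p = 0.0312), as did 4-digit mice alone, at -2.21 (adjusted p = 0.0163) and -1.39 (adjusted p = 0.0228), and Bcl2l1 also passed with DESeq2's size factors in edgeR (adjusted p = 0.043) and with haemoglobin genes removed (adjusted p = 0.0483). With low-factor libraries left out the values were -0.072 (adjusted p = 0.914) and -0.088 (adjusted p = 0.779), and on TPM they turned, to 0.14 and 0.25. Over the alternatives the number of pathway genes called for the change to Day 24 ran from 0 to 3.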

How the data were processed

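Whole-blood RNA from 45 mice was sequenced in 178 libraries (polyA RNA, SMARTer mRNA-Seq kit). Per the submitters' processing notes reads were aligned with STAR to mm10; the counting tool is not given in the sources used here. The authors deposited a table of estimated counts per gene, which need not be whole, and a table of TPM. All 55450 gene identifiers match GENCODE M21, and no column was left unused (0 unmapped). The design had assumed whole counts, so estimated counts were rounded. Library totals and the share of haemoglobin set the depth and are given in the report.

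Tests used edgeR 4.0.16 in R 4.3.3, with TMM scaling, filterByExpr, quasi-likelihood F tests and Benjamini-Hochberg adjustment over all genes tested. Response groups were set against each other day by day, and a gene was called where the adjusted p did not exceed 0.05 and the fold change reached 1.5. Changes between days were fitted within each response group, and the response by day interaction over all libraries, with the same limit on adjusted p alone. Levels are log2 CPM with a prior count of 2, and 95% intervals cover 1.96 SE. Lifr, planned for some of these tests, is given without a p throughout, because its levels set the choice. Figures and tables used Python 3.11.15 (numpy 2.4.6, pandas 2.3.3, matplotlib 3.10.9).

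The members, the pathway list and the marker lists were chosen with earlier results of these data known. Named genes were the members, up to 4 called pathway genes per direction and comparison by smallest p, the genes most alike in Pearson correlation (5 for Lifr, 3 for each other member) and at most 3 markers per list; a few genes that this rule selects are not reported here. The ear tag was taken to pair the libraries of a mouse. Mean correlations of same-mouse deviations lay between -0.0584 and 0.128 over pairs of days. They were not compared with those of different mice, so they do not test the pairing. In simulated data for the Day 4 response comparison (12620 genes), 83.6%, 94% and 98.5% of genes changed 1.5-, 2- and 3-fold were recovered with 4.66% false calls. For Day 24 (12469 genes) the shares were 89.6%, 97% and 98.5%, with 5% false calls. Recovery was counted on adjusted p alone, whereas response calls also required a 1.5-fold change. These shares are therefore not the recovery of the response calls, least of all for genes changed 1.5-fold.

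Alternatives were DESeq2 1.42.0 and its size factors, limma 3.58.1 on log2(TPM + 1), no filter, haemoglobin genes removed, the ear-tag series as a covariate or alone, the Day 17 library with the conflicting label as a responder or left out, the library of lowest TMM factor left out, and the mouse as a replicate block. Leaving out the 13 libraries with a TMM factor under 0.5 and the Socs3 change per mouse were added after seeing the data. Single-cell libraries of the study were not analysed here.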

Additional observations from a re-analysis of the deposited data

Results flagged for a closer look

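A pair of genes differed between response groups in their change from Day 4 to Day 24, in the interaction of response and day fitted with edgeR over all 178 libraries. They were 1 of the 4 members tested and 1 of the 38 pathway genes tested (2.63%), when 3.76% of all genes passed. For Socs3 the difference, responders minus non-responders, was -0.695 (adjusted p = 0.0251), and the change was upward in 9 of 15 responders and 28 of 29 non-responders. It held without the low-factor libraries (-0.78, adjusted p = 0.0228) and with the ear-tag series as a covariate (-0.70, adjusted p = 0.0236). It did not pass in 4-digit mice alone (-0.65, adjusted p = 0.264), in 3-digit mice alone, with 4 responders (-0.28, adjusted p = 0.865), or with limma on TPM (-0.073, adjusted p = 0.788). Of all genes, 4.96%, 0% and 9.69% passed in those fits in turn.

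For Myc the difference was 0.357 (adjusted p = 0.0188), which was 0.22 (adjusted p = 0.139) without the low-factor libraries. No group of 4 to 10 libraries was tested for a single outlying sample, since all 8 groups held at least 14.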

How the results depend on the processing

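Of the values recomputed under each alternative, most kept their direction and their side of the threshold. With DESeq2, its size factors in edgeR, haemoglobin genes removed, no filter, either treatment of the library with the conflicting label, or the library of lowest TMM factor left out, the number of members called stayed within 1.5 times the main count in every comparison. A pair of calls were lost there, Il6st in non-responders from Day 4 to Day 9 with DESeq2's size factors (-0.098, adjusted p = 0.0555) and Stat3 in responders from Day 17 to Day 24 without a filter (-0.18, adjusted p = 0.0843). The sign changes under these settings were all in Stat3 values near 0, on Day 4 between response groups at 0.00027 with DESeq2's size factors and 0.0069 with DESeq2, and from Day 9 to Day 17 in responders at -0.00093 without a filter and -0.0018 with the conflicting library as a responder.

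The mouse as a replicate block changed no call of a member. Paired in this way, the Socs3 difference of changes to Day 24 was -0.66 (adjusted p = 0.0267), while the sign turned for Stat3 from Day 9 to Day 17 in responders (-0.0022) and for the Socs3 difference of changes to Day 17 (0.018). The block lowered the count of all genes whose change to Day 24 differed between groups from 515 to 212, and leaving out the library of lowest TMM factor, non-responder 29 on Day 24, lowered it to 154 and raised the count of genes differing between groups on Day 24 from 37 to 95, with Socs3 still called (adjusted p = 0.0424). Without the 13 libraries with a TMM factor under 0.5, which leaves fewer samples, the count of genes differing between groups on Day 4 went from 531 to 0 in edgeR, with 1275 genes at an unadjusted p under 0.05.

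Without those 13 libraries members called went from 3 to 0 for responders from Day 4 to Day 9 and from 0 to 1 from Day 9 to Day 17. Of all genes, 19.9% and 7.11% were called in these steps. The response difference turned for Stat3 on Day 4 (0.094) and Il6st on Day 24 (-0.024), and the difference of changes turned for Lifr (-0.024) and Il6st (0.021) to Day 9 and for Lifr (-0.10) and Stat3 (-0.035) to Day 17. The Il6st value on Day 4 turned with the ear-tag series as a covariate (0.0017), as did Il6ra on Day 4 (-0.0053), Socs3 on Day 9 (0.15) and Stat3 on Day 17 (-0.00012).

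In 4-digit mice alone, 1 member was called from Day 4 to Day 9 in responders (17.3% of all genes) and in non-responders (14.3%). In that series 0 were called in either later step of non-responders (6.39% and 8.47%) or for the difference of changes to Day 24 (4.96%, Socs3 -0.65). There the response difference turned for Il6ra on Days 4, 9 and 17 (-0.0057, 0.036 and 0.025), Stat3 on Days 4 and 24 (0.00095 and 0.021), Socs3 on Day 9 (0.21) and Il6st on Day 24 (-0.069). Socs3 in non-responders turned from Day 9 to Day 17 (0.20) and from Day 17 to Day 24 (-0.33), and the difference of changes turned for Il6ra to Days 9 and 17 (0.029 and 0.035) and for Il6st (-0.070) and Stat3 (0.022) to Day 24. In 3-digit mice alone, with 4 responders, 1 member was called in responders from Day 4 to Day 9 (6.91% of all genes), 0 from Day 17 to Day 24 (0.0394%) and 0 for the difference of changes to Day 24 (0%; Socs3 -0.28). The response difference turned for Il6ra on Day 4 (-0.039), Socs3 on Days 9 and 24 (0.091 and 0.020), Stat3 on Day 17 (-0.052) and Lifr on Day 24 (-0.16). In responders Stat3 (-0.17) and Socs3 (-0.40) turned from Day 9 to Day 17 and Socs3 from Day 17 to Day 24 (0.029), and the difference of changes turned for Il6st (0.027) and Stat3 (0.060) to Day 9 and Stat3 to Day 24 (0.020).

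On log2(TPM + 1) with limma, where the median over all genes was -0.273 for response on Day 4, 0.21 for the difference of changes to Day 17 and 0.186 for that to Day 24, 1 member was called between response groups on Day 9 (Stat3, -0.64). On that day 6.26% of all genes were called, 786 lower and 3 higher in responders. Members called were 0 in responders from Day 4 to Day 9 and from Day 17 to Day 24, 1 and 0 in non-responders for those steps, and 0 for the difference of changes to Day 24 (Socs3 -0.073). Of all genes, 1.7% and 0.406% were called in responders for those steps, 20.3% and 4.22% in non-responders, and 9.69% for that difference. The response difference turned for Il6ra (-0.42) and Socs3 (-0.27) on Day 4, Stat3 on Day 17 (-0.10), and Lifr (-0.045) and Il6st (-0.086) on Day 24. Day changes turned in responders for Il6st (0.030) and Il6ra (0.086) from Day 9 to Day 17 and Lifr (-0.017) from Day 17 to Day 24, and in non-responders for Socs3 from Day 17 to Day 24 (-0.029) and for Il6ra (-0.17) and Stat3 (-0.13) from Day 4 to Day 17. The difference of changes turned for Lifr (-0.091) and Il6st (0.014) to Day 9, for Il6st (0.30), Il6ra (0.36) and Socs3 (0.33) to Day 17, and for Il6ra (0.29) and Stat3 (0.35) to Day 24. The cause of these changes was not tested. Depth limits Lifr most, with as few as 7 counts in a library, and p-values rest on mice of 1 cohort. Over the alternatives, pathway counts (text in brackets) from Day 4 to Day 9 were 7 to 29 (25) in non-responders. The share of all genes also varied, there at 14.3% in 4-digit mice and 53.9% without low-factor libraries. Responders had 1 to 12 (10). From Day 9 to Day 17 the ranges were 3 to 25 (15) and 0 to 5 (5). From Day 17 to Day 24 they were 3 to 13 (10) and 0 to 9 (8). Between Days 4 and 24 they were 2 to 24 (18) and 0 to 5 (4). Between response groups they were 0 to 7 on Day 4 (2), 0 to 6 on Day 9 (1) and 0 to 2 on Day 17 (0).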

Other observations

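The genes that ran most opposite to the members over the 178 libraries were Sept6 (r = -0.729), Tmsb10 (-0.72) and Limd2 (-0.714) for Lifr, and Scd1 (-0.715), Plekha2 (-0.693) and the immunoglobulin gene Ighm (-0.692) for Socs3. Cd79a, a B cell receptor gene, was among the most opposite to Il6ra (-0.584). The mean of the 5 B cell markers correlated with Socs3 at -0.652, which was -0.454 within groups. Median summed B cell CPM was 470 and 471 on Day 4 in responders and non-responders, 343 and 363 on Day 9, 347 and 394 on Day 17, and 450 and 425 on Day 24.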
